A study of Mus musculus with 22 samples.

Results

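The genes described here carry out antigen presentation by the major histocompatibility complex (MHC): 5 of class II (H2-Aa, H2-Ab1, H2-Eb1, Cd74 and Ciita) and 4 of class I (H2-K1, H2-D1, B2m and Tap1). They were taken by name, with earlier results of these data known. They are 9 of the 18716 rows of the deposited table of RPKM. RPKM is a read level scaled for the length of the gene and the size of the library. All 9 passed a filter of at least 0.5 RPKM in at least 7 libraries, which kept 12537 genes, although Ciita did so at levels close to that minimum. The livers formed 3 groups, all labelled Fah-/-. The YC group held 7 livers of mice that had received td-Hepatocytes, lost NTBC and then been given YC until day 28. The vehicle group held 8 livers of mice with the same transplant and NTBC withdrawal that were given vehicle until day 28. The D0 group held 7 livers labelled day 0 and normal liver. Fah is the last enzyme of tyrosine breakdown, and NTBC blocks that pathway upstream, which protects Fah-deficient liver. The study asked whether YC makes transplanted hepatocytes grow through dedifferentiation. The labels do not expand YC or td and do not give the donor strain or sex. A transplanted liver mixes recipient and donor cells, and the values do not separate them. Nothing in the labels says that each liver came from a separate mouse, so the p-values speak of the spread among these libraries, part of which may be technical.

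Class I molecules sit on nearly all nucleated cells and show peptides made inside the cell to CD8 T cells. Their heavy chains, such as H2-K1 and H2-D1, fold with the light chain beta-2 microglobulin (B2m), and Tap1 is one subunit of the transporter that carries peptides into the endoplasmic reticulum. Class II molecules show peptides taken up from outside to CD4 T cells and are made mainly by macrophages, dendritic cells and B cells. H2-Aa and H2-Ab1 encode the alpha and beta chains of the I-A molecule, H2-Eb1 encodes the beta chain of I-E, Cd74 is the invariant chain that guards their groove, and Ciita is the coactivator that class II transcription needs. Healthy hepatocytes are known to make class I and little class II, and in liver the resident macrophages, or Kupffer cells, are among the main class II-bearing cells.

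Promoter sequence is shown for the genes that stand for the different courses their levels took: H2-Aa and H2-Eb1 as class II chains, H2-K1 and B2m as the class I heavy and light chains, and Tap1 as the transporter. The windows run from 250 bases before to 50 bases after the annotated start and come from RefSeq (GRCm38.p6), where 6 of the 9 genes had an entry. Class II promoters are known for an X box and a Y box read by the RFX, CREB and NF-Y factors that Ciita joins, and class I promoters carry a related module read with Nlrc5, along with interferon response and kappa B elements. Capitals mark a match, on either strand, to ATTGG (Y box core), TGANGTCA (X2 box core), GAAANNGAA (interferon-stimulated response element core), TTCNNNGAA (gamma-activated site) or GGGANTCC (kappa B core). The windows are H2-Aa at chr17:34287774-34288073, reverse strand, H2-Eb1 at chr17:34305617-34305916, forward strand, H2-K1 at chr17:34000298-34000597, reverse strand, B2m at chr2:122147437-122147736, forward strand and Tap1 at chr17:34187306-34187605, forward strand, each printed 5′ to 3′ on the strand of the gene.
H2-Aa: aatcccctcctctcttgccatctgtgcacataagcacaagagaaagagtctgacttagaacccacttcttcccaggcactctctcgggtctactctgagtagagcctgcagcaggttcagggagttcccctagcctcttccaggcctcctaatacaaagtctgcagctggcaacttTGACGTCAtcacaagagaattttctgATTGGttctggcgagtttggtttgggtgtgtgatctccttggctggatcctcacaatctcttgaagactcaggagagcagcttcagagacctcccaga
H2-Eb1: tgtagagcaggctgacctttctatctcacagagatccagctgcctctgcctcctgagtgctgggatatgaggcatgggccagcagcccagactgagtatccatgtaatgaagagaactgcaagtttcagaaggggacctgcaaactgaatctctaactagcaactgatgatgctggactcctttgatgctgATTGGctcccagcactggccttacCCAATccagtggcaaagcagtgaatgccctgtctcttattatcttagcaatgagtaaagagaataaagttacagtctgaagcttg
H2-K1: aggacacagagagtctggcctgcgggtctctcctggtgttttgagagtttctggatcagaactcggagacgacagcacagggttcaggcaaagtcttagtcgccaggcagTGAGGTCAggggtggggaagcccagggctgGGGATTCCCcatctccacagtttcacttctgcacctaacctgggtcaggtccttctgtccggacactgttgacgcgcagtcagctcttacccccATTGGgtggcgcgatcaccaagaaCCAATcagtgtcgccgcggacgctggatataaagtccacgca
B2m: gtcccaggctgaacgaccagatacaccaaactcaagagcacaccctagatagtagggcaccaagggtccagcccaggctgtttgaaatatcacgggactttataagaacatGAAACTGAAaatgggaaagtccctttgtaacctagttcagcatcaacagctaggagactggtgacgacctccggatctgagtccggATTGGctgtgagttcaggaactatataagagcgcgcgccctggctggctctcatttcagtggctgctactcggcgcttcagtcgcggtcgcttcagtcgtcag
Tap1: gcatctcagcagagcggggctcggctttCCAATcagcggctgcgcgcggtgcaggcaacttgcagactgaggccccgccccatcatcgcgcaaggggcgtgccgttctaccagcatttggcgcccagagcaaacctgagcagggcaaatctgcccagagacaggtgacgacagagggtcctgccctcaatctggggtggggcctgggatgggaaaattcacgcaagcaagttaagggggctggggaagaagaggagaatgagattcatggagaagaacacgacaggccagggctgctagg

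The Y box core was found in all 6 windows that had an entry, 2 of class II and 4 of class I, and in 37.4% of the 32851 promoters in the table. The X2 box core was found in H2-Aa, H2-K1 and H2-D1, and in 8.83% of all promoters. The interferon-stimulated response element core was found in B2m alone among the 6, and in 8.56% of all promoters. The kappa B core was found in H2-K1 and H2-D1, where its matches on the 2 strands overlap, and in 4.18% of all promoters. The gamma-activated site was found in 0 of the 6, and in 8.298% of all promoters. These are matches of letters within a window and do not show that a factor binds there.

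Library depth, recovered from the steps between low values, ran from 50100000 to 82800000 in the YC group. It ran from 51100000 to 71800000 in the vehicle group and from 51100000 to 66300000 in the D0 group. Fah, the gene named in the genotype, had 31.5 to 407 RPKM (median 128) in YC livers, 271 to 542 RPKM (median 401) in vehicle livers and 21.1 to 38.7 RPKM (median 28.6) in D0 livers. YC 6 and YC 7 had 41.3 and 31.5 RPKM of Fah, close to D0. Y-linked transcripts were present in all 8 vehicle livers and in YC 1, YC 2 and YC 3, and were absent or nearly so in YC 4 to YC 7 and in all 7 D0 livers. Between vehicle and D0 livers, Y status and group therefore cannot be told apart. The hepatocyte marker Alb averaged 24644 RPKM in YC, 50803 in vehicle and 43092 in D0 livers, which fits the liver label. The log2 fold change of the median gene was 0.31 for YC minus vehicle and 0.25 for YC minus D0 on the deposited scale, against 0.0049 for vehicle minus D0. A fall in YC livers is thus a fall against a general upward shift, and a modest rise in YC livers can lie within that shift. Fold changes below are log2 differences of RPKM + 0.5 with their SE, from limma across all 12537 genes with Benjamini-Hochberg adjusted p-values, and calls were made where the adjusted p was under 0.05.

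The 4 class II genes that encode alpha or beta chains or the invariant chain moved together. By mean, all 4 were highest in vehicle livers, lower in YC livers and lowest in D0 livers. In YC against vehicle livers 4 of the 5 class II genes fell and 0 rose, where 6.14% of all genes tested fell and 44.6% rose. In vehicle against D0 livers 4 of 5 rose and 0 fell, where 28.2% of all genes rose and 29.9% fell. In YC against D0 livers 4 of 5 rose and 0 fell, where 41.2% of all genes rose and 12.3% fell. Ciita was the member not called in any of the 3 comparisons.

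H2-Aa (chr17:34282744-34287823 in GRCm38, the mm10 build, reverse strand) had 34.7 to 105 RPKM (median 71.1) in YC livers, 96.5 to 209.7 RPKM (median 156) in vehicle livers and 24.1 to 87.9 RPKM (median 31.5) in D0 livers. Every vehicle liver lay above every D0 liver, while YC livers overlapped both groups, with YC 3 and YC 5 just above the lowest vehicle liver. The means were 71.4 ± 25.6 RPKM in YC (SD, n = 7), 155 ± 33.96 in vehicle (n = 8) and 40.6 ± 22.6 in D0 livers (n = 7). H2-Aa had log2 fold changes of -1.17 ± 0.25, adjusted p = 0.000615 for YC minus vehicle, 2.03 ± 0.25, adjusted p = 6.58e-07 for vehicle minus D0 and 0.86 ± 0.26, adjusted p = 0.00787 for YC minus D0 (limma).

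H2-Ab1 (chr17:34257689-34269419, forward strand) had 25.7 to 85.4 RPKM (median 54.4) in YC livers, 55.02 to 159 RPKM (median 107) in vehicle livers and 15.2 to 86.9 RPKM (median 22.04) in D0 livers. D0 3, at 86.9 RPKM, stood above the other D0 livers and above vehicle 1 and vehicle 8, at 67.5 and 55.02 RPKM. YC 3, YC 4 and YC 5 lay at 78.8 to 85.4 RPKM, above the lowest vehicle livers, while YC 1, YC 2 and YC 7 lay at 25.7 to 36.6 RPKM and YC 6 between. H2-Ab1 had log2 fold changes of -0.97 ± 0.33, adjusted p = 0.0189 for YC minus vehicle, 1.89 ± 0.33, adjusted p = 5.15e-05 for vehicle minus D0 and 0.92 ± 0.34, adjusted p = 0.0282 for YC minus D0 (limma). The rise in YC against D0 livers passed narrowly: leaving out D0 1, D0 2, D0 6, D0 7, YC 3, YC 4 or YC 5 put it at 0.78 to 0.87, with adjusted p of 0.0508 to 0.0695.

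H2-Eb1 (chr17:34305867-34316674, forward strand) ran at lower levels with the same order, with 18.7 to 58.6 RPKM (median 31.7) in YC livers, 27.3 to 104 RPKM (median 61.9) in vehicle livers and 11.2 to 45.8 RPKM (median 14.4) in D0 livers. D0 3 was again the high D0 liver, at 45.8 RPKM, and vehicle 8 the low vehicle liver, at 27.3 RPKM. H2-Eb1 had log2 fold changes of -0.85 ± 0.31, adjusted p = 0.0268 for YC minus vehicle, 1.73 ± 0.31, adjusted p = 6.17e-05 for vehicle minus D0 and 0.88 ± 0.32, adjusted p = 0.0236 for YC minus D0 (limma). Both calls that involve YC rested on a few livers. Without vehicle 3, vehicle 4, YC 1, YC 2 or YC 7 the difference from vehicle was -0.79 to -0.72, with adjusted p of 0.0533 to 0.0699, and without D0 6, D0 7, YC 3 or YC 5 the difference from D0 was 0.74 to 0.80, with adjusted p of 0.0506 to 0.0597. The partner alpha chain of I-E had next to no signal: its only row, H2-Ea-ps, was at 0 in all YC livers and reached 0.0205 RPKM in 1 vehicle and 0.0183 RPKM in 1 D0 liver. These values therefore do not show that H2-Eb1 forms a displayed I-E molecule.

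Cd74 was the most abundant class II member, with 69.4 to 221 RPKM (median 136) in YC livers, 140.2 to 385 RPKM (median 264) in vehicle livers and 43.02 to 193 RPKM (median 56.1) in D0 livers. As with the chains it guards, YC livers lay between, and D0 3, at 193 RPKM, lay above vehicle 1 and vehicle 8. Cd74 had log2 fold changes of -0.89 ± 0.31, adjusted p = 0.0213 for YC minus vehicle, 1.85 ± 0.31, adjusted p = 3.13e-05 for vehicle minus D0 and 0.96 ± 0.32, adjusted p = 0.0155 for YC minus D0 (limma). Without YC 1 or YC 7 the difference from vehicle was -0.78 or -0.73, with adjusted p of 0.0542 and 0.0546. Ciita, the coactivator, had 0.215 to 1.12 RPKM (median 0.394) in YC livers, 0.259 to 0.733 RPKM (median 0.563) in vehicle livers and 0.151 to 0.606 RPKM (median 0.283) in D0 livers. Those groups overlapped, with YC 3, YC 4 and YC 5 at 0.897, 0.703 and 1.12 RPKM and the other YC livers at or under 0.394 RPKM. Its log2 fold changes were -0.035 ± 0.17, adjusted p = 0.875 for YC minus vehicle, 0.38 ± 0.17, adjusted p = 0.0541 for vehicle minus D0 and 0.35 ± 0.17, adjusted p = 0.0947 for YC minus D0 (limma). Ciita overlaps Dexi on the other strand, and the sources used here do not say whether strand was used in counting. Leaving out D0 3, D0 5 or vehicle 8 put Ciita for vehicle minus D0 at 0.42 to 0.46, with adjusted p of 0.0239 to 0.0471, and leaving out D0 3 or YC 7 put it for YC minus D0 at 0.42 and 0.43, with adjusted p of 0.0438 and 0.0382.

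**Figure D1:**
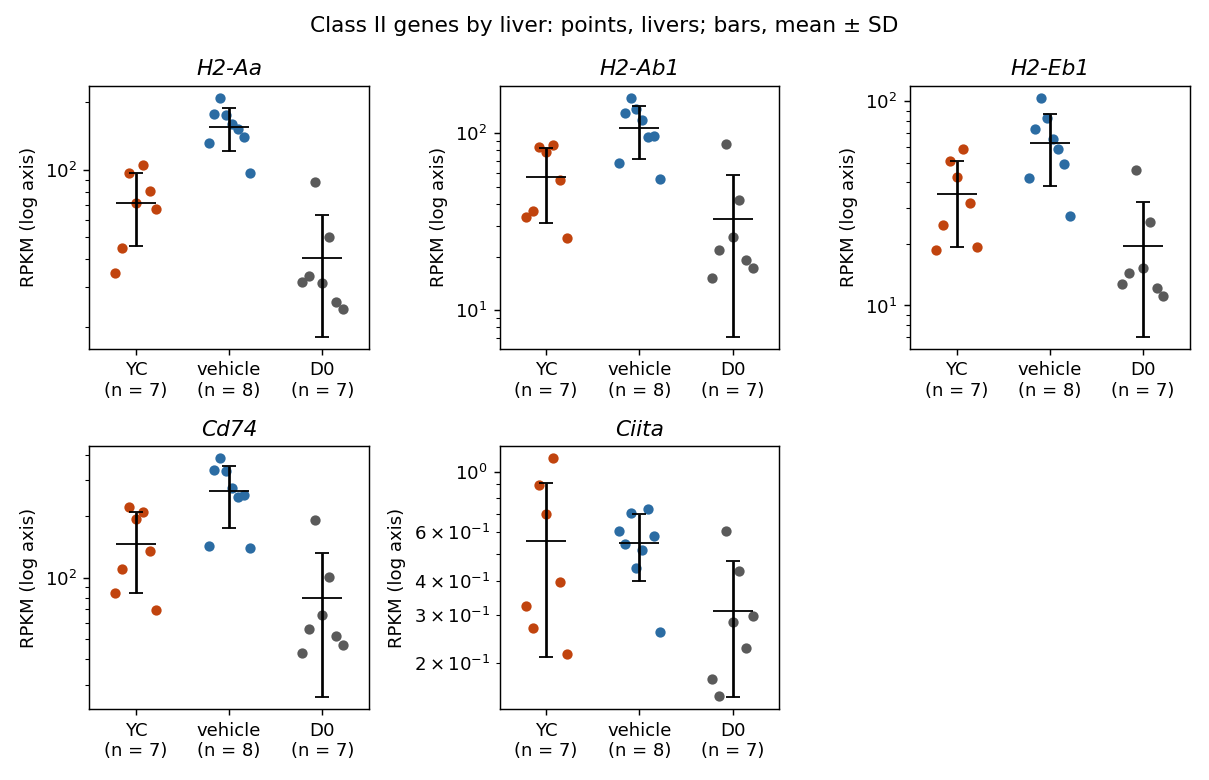
RPKM (log axis) of the 5 class II genes in each liver of the YC (n = 7), vehicle (n = 8) and D0 (n = 7) groups, with 1 point per liver and bars for mean ± SD. H2-Aa, H2-Ab1, H2-Eb1 and Cd74 are highest in vehicle livers, with YC livers between and 1 D0 liver, D0 3, above the rest of its group.

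The calls in YC livers depended on their scale and on 2 livers. Relative to the median gene, the class II differences were -1.48 (H2-Aa), -1.28 (H2-Ab1), -1.16 (H2-Eb1) and -1.20 (Cd74) for YC minus vehicle, and 0.60, 0.67, 0.63 and 0.71 for YC minus D0 in the same order. With median-ratio scaling, where 18.1% of all genes rose and 16.8% fell in YC against vehicle livers, the 4 class II genes fell as before. With that scaling 25.7% of genes rose and 28.7% fell in YC against D0 livers, and 0 of the 5 class II genes was called, with H2-Aa at 0.52 and Cd74 at 0.62. Without YC 6 and YC 7, whose Fah was near D0, H2-Aa still fell against vehicle, while H2-Ab1 was at -0.79 (adjusted p = 0.0738), H2-Eb1 at -0.70 (adjusted p = 0.096) and Cd74 at -0.70 (adjusted p = 0.0853). YC livers were also split by Y-linked transcripts, a split chosen after the data were seen. Set against vehicle, the 3 YC livers with Y-linked transcripts gave -1.50 (adjusted p = 0.000975) for H2-Aa and -1.11 (adjusted p = 0.0379) for H2-Ab1. H2-Eb1 was at -1.01 (adjusted p = 0.0442) and Cd74 at -0.97 (adjusted p = 0.0511, limma). With Y status as a covariate over all livers, H2-Aa (adjusted p = 0.000774) and H2-Ab1 (adjusted p = 0.0482) were still called. H2-Eb1 (adjusted p = 0.0521) and Cd74 (adjusted p = 0.0648, limma) were not. Set against D0, the 4 YC livers without Y-linked transcripts gave 1.10 (adjusted p = 0.00297) for H2-Aa and 1.02 (adjusted p = 0.0364) for Cd74.

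Class I genes did not share 1 course. In YC against vehicle livers 3 of the 4 fell and 0 rose, in vehicle against D0 livers 2 rose and 0 fell, and in YC against D0 livers 1 rose and 2 fell. Of all genes tested, 6.14% fell in YC against vehicle livers, 28.2% rose in vehicle against D0 livers, and 41.2% rose and 12.3% fell in YC against D0 livers. B2m and H2-K1 fell below the D0 level in YC livers, H2-D1 lay near it, and Tap1 lay above it.

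B2m (chr2:122147686-122153083, forward strand), the light chain common to class I molecules, had 473 to 1117 RPKM (median 908) in YC livers, 1308 to 2918 RPKM (median 2397) in vehicle livers and 1493 to 1819 RPKM (median 1620.5) in D0 livers. Every YC liver was below every vehicle liver and every D0 liver. YC 1 and YC 2 were the lowest, at 501 and 473 RPKM, and 7 of the 8 vehicle livers were above every D0 liver, vehicle 1 being below them. The means were 826 ± 244 RPKM in YC (SD, n = 7), 2298 ± 524 in vehicle (n = 8) and 1619 ± 113 in D0 livers (n = 7). B2m had log2 fold changes of -1.50 ± 0.19, adjusted p = 2.71e-06 for YC minus vehicle, 0.47 ± 0.19, adjusted p = 0.039 for vehicle minus D0 and -1.03 ± 0.20, adjusted p = 0.000125 for YC minus D0 (limma). The rise in vehicle livers passed narrowly: leaving out any 1 of D0 2 to D0 7, vehicle 3 to vehicle 6 or vehicle 8 put it at 0.41 to 0.48, with adjusted p of 0.0504 to 0.0765, and quantile normalization put it at 0.26 (adjusted p = 0.221). B2m overlaps Patl2 on the other strand.

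H2-K1 (chr17:33996017-34000347, reverse strand), a classical heavy chain, had 189 to 667 RPKM (median 308) in YC livers, 554 to 1134 RPKM (median 867) in vehicle livers and 550.4 to 1045 RPKM (median 809) in D0 livers. YC 1, YC 2, YC 6 and YC 7 were below every other liver, at 261, 308, 231 and 189 RPKM, while YC 3, YC 4 and YC 5 lay within the vehicle and D0 ranges. H2-K1 had log2 fold changes of -1.16 ± 0.26, adjusted p = 0.000747 for YC minus vehicle, 0.098 ± 0.26, adjusted p = 0.761 for vehicle minus D0 and -1.06 ± 0.26, adjusted p = 0.00163 for YC minus D0 (limma). H2-D1 (chr17:35262730-35267499, forward strand), the other classical heavy chain measured, had 235 to 459 RPKM (median 292) in YC livers, 309 to 697 RPKM (median 544) in vehicle livers and 249.98 to 450.5 RPKM (median 304) in D0 livers. Its groups overlapped, with vehicle 8 and vehicle 1, at 309 and 359 RPKM, below the other 6 vehicle livers. H2-D1 had log2 fold changes of -0.62 ± 0.19, adjusted p = 0.00796 for YC minus vehicle, 0.69 ± 0.19, adjusted p = 0.00288 for vehicle minus D0 and 0.07 ± 0.19, adjusted p = 0.779 for YC minus D0 (limma). Of the 50-base stretches in annotated transcripts of H2-K1, 9.63% also occurred in another gene, most often H2-Q10, and of those of H2-D1 12.8%, most often H2-Q1. Reads from such stretches can be assigned to either gene, so both heavy chain values are uncertain, whereas 0 such stretches were found for B2m, H2-Ab1, H2-Eb1, Cd74 and Ciita.

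Tap1 (chr17:34187553-34197225, forward strand), the peptide transporter subunit, had 5.68 to 21.5 RPKM (median 13.7) in YC livers, 5.802 to 12.6 RPKM (median 9.599) in vehicle livers and 5.22 to 13.3 RPKM (median 6.64) in D0 livers. YC 1 to YC 5 lay above all 8 vehicle livers. YC 6 and YC 7, at 7.04 and 5.68 RPKM, were the lowest of their group, and 7 of the 8 vehicle livers lay above both. Tap1 had log2 fold changes of 0.35 ± 0.23, adjusted p = 0.198 for YC minus vehicle, 0.35 ± 0.23, adjusted p = 0.188 for vehicle minus D0 and 0.70 ± 0.23, adjusted p = 0.014 for YC minus D0 (limma). Without YC 6 and YC 7 the difference from vehicle was 0.70 (adjusted p = 0.00429). Without YC 7 alone it was 0.52 (adjusted p = 0.0403), and with array weights 0.55 (adjusted p = 0.0101, limma). With median-ratio scaling the difference from vehicle was 0.0215 (adjusted p = 0.951, limma). With quantile normalization it was 0.0179 (adjusted p = 0.959, limma). The rise over vehicle livers was thus not seen once the general shift was scaled out. With median-ratio scaling the difference from D0 was 0.38 (adjusted p = 0.166). Set against D0, the 4 YC livers without Y-linked transcripts gave 0.51 (adjusted p = 0.152). Tap1 overlaps the immunoproteasome gene Psmb9 on the other strand.

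**Figure D2:**
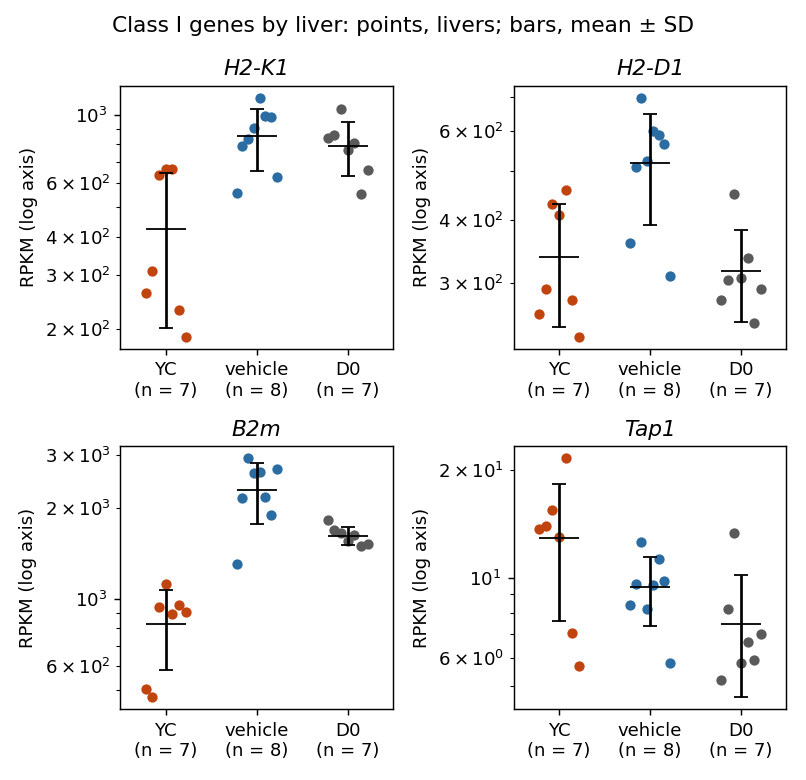
RPKM (log axis) of the 4 class I genes in each liver of the YC (n = 7), vehicle (n = 8) and D0 (n = 7) groups, with 1 point per liver and bars for mean ± SD. All YC livers are below all others for B2m, 4 YC livers are below all others for H2-K1, and YC livers reach the highest Tap1 values.

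**Figure D3:**
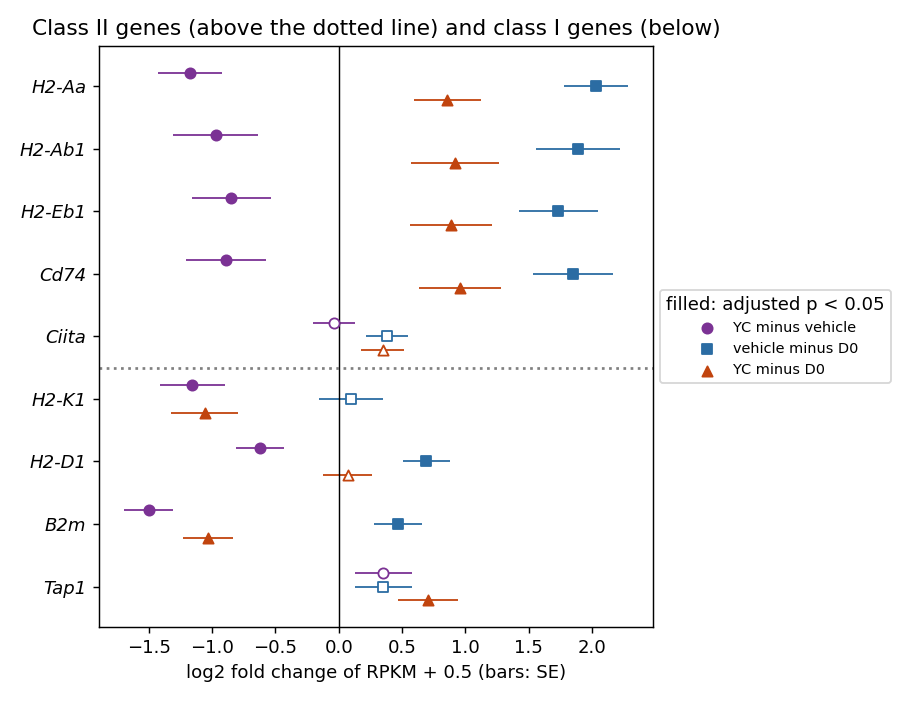
Log2 fold change of RPKM + 0.5 with its SE for the 9 genes (rows), with 1 symbol for each of the 3 comparisons and filled symbols for an adjusted p under 0.05 (limma). The 4 class II genes above Ciita share 1 pattern, while H2-K1 and B2m are below 0 in YC minus D0 and Tap1 is above 0 in all 3 comparisons.

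H2-Ab1 set against B2m within each liver compared 1 class II gene with 1 class I gene free of library scaling. The result is one of that pair. For YC minus vehicle B2m was at -1.50, against -1.16 for H2-K1, -0.62 for H2-D1 and 0.35 for Tap1. The log2 ratio was -5.12 to -3.38 in the YC group, -5.60 to -4.05 in the vehicle group and -6.86 to -4.24 in the D0 group. D0 3, at -4.24, lay among the vehicle livers, and YC 7 and vehicle 8 lay apart from their groups. The ratio was higher in vehicle than in D0 livers by 1.42 (exact two-sided permutation test, p = 0.00466, adjusted p over 6 tests = 0.014) and higher in YC than in D0 livers by 1.95 (exact two-sided permutation test, p = 0.00117, adjusted p over 6 tests = 0.00699). Between YC and vehicle livers the difference was 0.53 (exact two-sided permutation test, p = 0.0724, adjusted p over 6 tests = 0.0869), which did not pass. Without YC 7 that difference was 0.73 (adjusted p = 0.004), and without YC 6 and YC 7 it was 0.81 (adjusted p = 0.00758). Without vehicle 8, the other liver that lay apart, it was 0.37 and did not pass. That was the lowest value with 1 liver left out, and YC 7 was the only single liver whose removal gave a call. Averaged over each class after centring every gene on its own mean, class II minus class I was 0.34 ± 0.24 in YC (SD, n = 7), 0.39 ± 0.24 in vehicle (n = 8) and -0.78 ± 0.46 in D0 livers (n = 7).

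**Figure D4:**
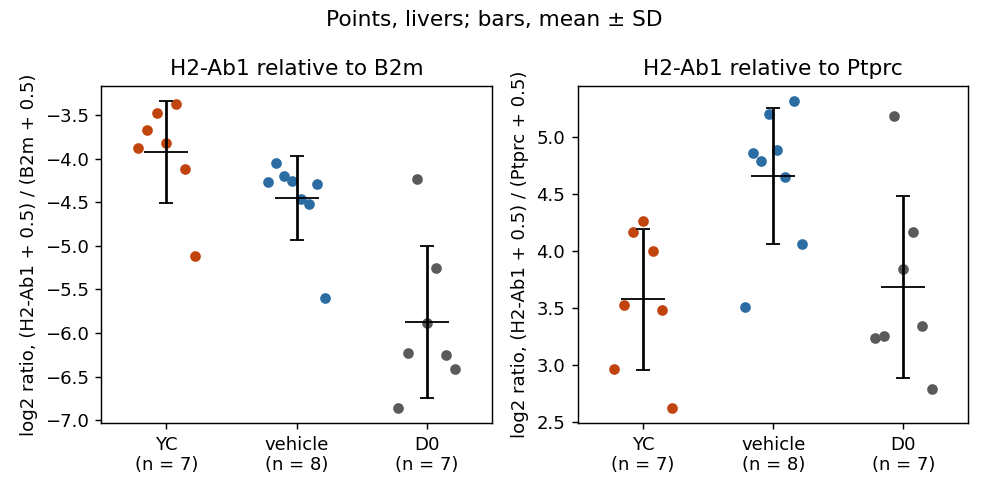
Log2 ratio of H2-Ab1 to B2m (left) and to Ptprc (right), each with 0.5 RPKM added, in each liver of the YC (n = 7), vehicle (n = 8) and D0 (n = 7) groups, with bars for mean ± SD. The mean ratio to B2m is lowest in D0 livers, where D0 3 stands apart and vehicle 8 lies within the D0 range, and the mean ratio to Ptprc is highest in vehicle livers, with D0 3 among the highest of them.

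The list of genes that process and load class II peptides also held the X box factors Rfx5, Rfxap and Rfxank. Of 12 tested, 8 rose and 1 fell in vehicle against D0 livers, where 28.2% of all genes rose and 29.9% fell. In YC against vehicle livers 3 rose and 3 fell, where 44.6% of all genes rose and 6.14% fell. In YC against D0 livers 8 rose and 0 fell, where 41.2% of all genes rose and 12.3% fell. The 3 that rose in YC against vehicle livers were Ctsl, Rfx5 and Rfxank, and the 1 that fell in vehicle against D0 livers was Rfxank. With median-ratio scaling 1 rose and 5 fell in YC against vehicle livers, where 18.1% of all genes rose and 16.8% fell. Under it 5 rose and 2 fell in YC against D0 livers, where 25.7% of all genes rose and 28.7% fell. Their median log2 fold changes as deposited were -0.10 for YC minus vehicle, 0.59 for vehicle minus D0 and 0.59 for YC minus D0. H2-DMb1, a chain of the DM molecule that releases the invariant chain peptide, averaged 6.06 ± 1.65 RPKM in YC, 9.301 ± 2.48 in vehicle and 2.400 ± 1.49 in D0 livers, and fell in YC against vehicle livers by 0.58 (adjusted p = 0.0356, limma). H2-Oa and H2-Ob, the DO chains that restrain DM and are known mainly from B cells, fell in YC against vehicle livers by 0.48 (adjusted p = 0.0372) and 0.47 (adjusted p = 0.0161, limma). Calls of H2-DMb1 and H2-Oa were narrow. H2-DMb1 was not called without vehicle 2, vehicle 3, vehicle 4, vehicle 6, YC 1, YC 2 or YC 7 (-0.57 to -0.49, adjusted p of 0.051 to 0.0843), and H2-Oa was not called without vehicle 3, vehicle 4, vehicle 5, vehicle 6, YC 1, YC 2, YC 6 or YC 7 (-0.49 to -0.39, adjusted p of 0.0525 to 0.0849). Ctss, the cathepsin that cuts the invariant chain in antigen-presenting cells, averaged 84.6 ± 26.98 RPKM in YC, 112 ± 46.3 in vehicle and 22.5 ± 6.26 in D0 livers, and its difference between YC and vehicle was -0.36 ± 0.23, adjusted p = 0.197 (limma). It was called lower with median-ratio scaling (-0.71, adjusted p = 0.0142), array weights (-0.56, adjusted p = 0.0145) and the replicate block (-0.50, adjusted p = 0.0443). Without YC 6 and YC 7 it was also called lower (-0.59, adjusted p = 0.04). Ctsl, a lysosomal cathepsin made by many cells, rose in YC against vehicle livers by 0.65 ± 0.14, adjusted p = 0.000518 (limma). Rfx5, an X box factor, rose by 0.69 ± 0.17, adjusted p = 0.00172 and Rfxank, its partner, by 0.33 ± 0.13, adjusted p = 0.0359 (limma), but with quantile normalization Rfxank was at -0.068 and Rfx5 at 0.31 (adjusted p = 0.0886). Rfxank was not called without vehicle 2, vehicle 3, vehicle 4, vehicle 5, YC 1, YC 2 or YC 5 (0.26 to 0.32, adjusted p of 0.0532 to 0.0952). With median-ratio scaling Ctsl was at 0.30 (adjusted p = 0.0999).

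The list of genes that process and load class I peptides also held the regulator Nlrc5. Of 8 tested, 2 rose and 0 fell in YC against vehicle livers, and 0 rose and 5 fell in vehicle against D0 livers. For YC against D0 livers 2 rose and 3 fell. All genes tested had 44.6% rising and 6.14% falling, 28.2% and 29.9%, and 41.2% and 12.3% in that order. With median-ratio scaling 0 rose and 1 fell in YC against vehicle livers, where 18.1% of all genes rose and 16.8% fell. Under it 1 rose and 6 fell in YC against D0 livers, where 25.7% of all genes rose and 28.7% fell. The 2 that rose in YC against vehicle livers were Tap2, by 0.50 (adjusted p = 0.047), and Tapbpl, a tapasin-related protein, by 0.36 (adjusted p = 0.0447, limma). Both calls were narrow. Tap2 was not called without vehicle 1, vehicle 2, vehicle 3, vehicle 4, vehicle 5, vehicle 8, YC 1, YC 2, YC 3, YC 4 or YC 5 (0.43 to 0.52, adjusted p of 0.0517 to 0.1), and Tapbpl was not called without vehicle 2, vehicle 3, vehicle 4, vehicle 5, vehicle 6, vehicle 7, vehicle 8, YC 1, YC 2, YC 3, YC 4 or YC 5 (0.29 to 0.37, adjusted p of 0.0561 to 0.109). Tap2, the partner of Tap1, averaged 16.8 ± 5.104 RPKM in YC, 11.4 ± 2.27 in vehicle and 9.07 ± 3.398 in D0 livers, and rose in YC against D0 livers by 0.85 ± 0.21, adjusted p = 0.0018 (limma). Tapbp, or tapasin, which bridges the transporter to the heavy chain, rose in YC against D0 livers by 0.54 ± 0.20, adjusted p = 0.0256 (limma). Tapbp was not called without D0 1, D0 6, YC 3, YC 4 or YC 5 (0.46 to 0.50, adjusted p of 0.05 to 0.0612), and with median-ratio scaling it was at 0.20 (adjusted p = 0.439). Nlrc5, the class I counterpart of Ciita, averaged 1.94 ± 0.974 RPKM in YC, 1.75 ± 0.781 in vehicle and 2.98 ± 0.722 in D0 livers, and fell by 0.67 in vehicle against D0 livers (adjusted p = 0.0177, limma). The trimming peptidase Erap1 and the chaperones Canx and Pdia3 fell in vehicle against D0 livers by 0.56, 0.44 and 0.36 (adjusted p = 0.00767, 0.00175 and 0.0211, limma), and without D0 7 Pdia3 was at -0.30 (adjusted p = 0.0595). The 3 that fell in YC against D0 livers were Canx, Erap1 and Nlrc5. With 1 liver left out they were at -0.52 to -0.44, -0.49 to -0.38 and -0.74 to -0.45 in that order. Erap1 was not called in 10 of those 14 fits and Nlrc5 in 8 of 14. Of 5 immunoproteasome and activator genes, Psmb9 and Psmb10 rose in vehicle against D0 livers by 0.71 (adjusted p = 0.0343) and 0.65 (adjusted p = 0.00608, limma), and 0 of 5 were called in either comparison of YC livers as deposited. With median-ratio scaling Psmb9 and Psmb10 fell in YC against vehicle livers, at -0.87 (adjusted p = 0.0162) and -0.65 (adjusted p = 0.0124). Psmb9 was not called without D0 1, D0 2, D0 4, vehicle 2, vehicle 3, vehicle 4 or vehicle 6 (0.55 to 0.70, adjusted p of 0.0504 to 0.0951).

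Among 14 further genes listed as class I heavy chains, 3 rose and 4 fell in YC against vehicle livers. There 44.6% of all genes rose and 6.14% fell. Vehicle against D0 livers gave 10 higher and 1 lower, with 28.2% and 29.9% of all genes. YC against D0 livers gave 5 higher and 3 lower, with 41.2% and 12.3% of all genes. With median-ratio scaling 1 rose and 9 fell in YC against vehicle livers, where 18.1% of all genes rose and 16.8% fell. Under it 4 rose and 4 fell in YC against D0 livers, where 25.7% of all genes rose and 28.7% fell. H2-Ke6, listed for its name, encodes a hydroxysteroid dehydrogenase and is no heavy chain. Its values fell in YC against vehicle livers by 1.48 (adjusted p = 1.78e-05, limma) and are counted above. H2-Q10, a secreted class I molecule made by hepatocytes, averaged 1097 ± 748 RPKM in YC, 1900.5 ± 334 in vehicle and 1068 ± 143 in D0 livers, and fell in YC against vehicle livers by 1.15 (adjusted p = 0.00747, limma). H2-Q1 averaged 41.6 ± 14.01 RPKM in YC, 34.4 ± 16.1 in vehicle and 3.12 ± 0.785 in D0 livers, a rise of 3.17 ± 0.25, adjusted p = 9.37e-10 in vehicle and 3.49 ± 0.26, adjusted p = 1.69e-10 in YC against D0 livers (limma). H2-Q2 rose in YC against vehicle livers by 1.31 ± 0.18, adjusted p = 6.14e-06 (limma). H2-Q7 fell there by 1.16 (adjusted p = 0.0014), and H2-T22 rose by 0.51 (adjusted p = 0.0315, limma). H2-T22 was not called without vehicle 1, vehicle 8, YC 6 or YC 7 (0.39 to 0.45, adjusted p of 0.0572 to 0.0863), and with median-ratio scaling it was at 0.17 (adjusted p = 0.524), where Cd1d1 was at 0.041 (adjusted p = 0.814). Cd1d1, which presents lipids, rose in YC against vehicle livers by 0.39 (adjusted p = 0.00638) and fell in vehicle against D0 livers by 0.82 (adjusted p = 2.27e-06, limma). The shares of 50-base stretches found in another gene were 14.96% for H2-Q1, 16.1% for H2-Q2, 26.4% for H2-Q7, 18.98% for H2-Q10, 34.5% for H2-T22 and 70.5% for H2-Ke6, so these single values are uncertain.

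Interferon gamma is the best known inducer of Ciita, Nlrc5, Tap1 and the immunoproteasome. Ifng itself did not pass the filter, with means of 0.0296 RPKM in YC, 0.0686 in vehicle and 0.0567 in D0 livers. Of 14 genes of its signalling and response that were tested, 4 rose and 3 fell in YC against vehicle livers. Vehicle against D0 livers gave 4 higher and 1 lower, and YC against D0 livers 3 higher and 1 lower. Over all genes tested the shares were 44.6% higher and 6.14% lower, 28.2% and 29.9%, and 41.2% and 12.3% in that order. With median-ratio scaling 1 rose and 6 fell in YC against vehicle livers, where 18.1% of all genes rose and 16.8% fell. Under it 3 rose and 3 fell in YC against D0 livers, where 25.7% of all genes rose and 28.7% fell. The receptor chain Ifngr1 averaged 28.2 ± 7.05 RPKM in YC and 17.4 ± 3.63 in vehicle livers, and the kinase Jak2 averaged 7.08 ± 1.66 RPKM in YC and 3.34 ± 0.981 in vehicle livers. They rose in YC against vehicle livers by 0.66 ± 0.15, adjusted p = 0.000983 and by 0.98 ± 0.15, adjusted p = 2.51e-05 (limma), and with median-ratio scaling Ifngr1 was at 0.32 (adjusted p = 0.0612). Cxcl9, a chemokine that draws activated T cells, averaged 2.501 ± 1.75 RPKM in YC and 9.19 ± 2.97 in vehicle livers and fell by 1.89 (adjusted p = 5.35e-05, limma). Of 5 ligands that T cells read beside the MHC, 2 rose and 0 fell in YC against vehicle livers, 4 rose and 0 fell in vehicle against D0 livers, and 5 rose in YC against D0 livers. With median-ratio scaling 1 rose and 1 fell in YC against vehicle livers. Cd274, or PD-L1, averaged 2.91 ± 1.004 RPKM in YC, 1.203 ± 0.446 in vehicle and 1.18 ± 0.246 in D0 livers and rose in YC against vehicle livers by 0.98 ± 0.19, adjusted p = 0.000192 (limma). Cd86 was at -0.41 ± 0.21, adjusted p = 0.103 for YC minus vehicle and rose by 1.12 ± 0.21, adjusted p = 9.15e-05 in vehicle against D0 livers (limma). For YC minus vehicle Cd86 was called lower with median-ratio scaling, at -0.69 (adjusted p = 0.0106), with quantile normalization, at -0.83 (adjusted p = 0.00645), with array weights, at -0.66 (adjusted p = 0.00293), and without YC 6 and YC 7, at -0.69 (adjusted p = 0.00595).

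Markers of the cells that bear class II were counted beside it. In bulk liver, fewer cells of a type and less RNA per cell cannot be told apart. The summed level of 10 resident macrophage markers was 423 to 1058 RPKM in YC livers, 599.6 to 2049 RPKM in vehicle livers and 172 to 350.1 RPKM in D0 livers. Of those 10, 0 rose and 3 fell in YC against vehicle livers, where 44.6% of all genes rose and 6.14% fell. Against D0, 9 rose and 0 fell in vehicle livers, with 28.2% and 29.9% of all genes. YC livers had 9 higher and 0 lower than D0, with 41.2% and 12.3% of all genes. C1qa, C1qb and C1qc, which encode the first component of complement, were the 3 that fell, by 0.74, 0.71 and 0.66 (adjusted p = 0.0186, 0.0185 and 0.0316, limma). C1qc was not called without vehicle 2, vehicle 3, vehicle 4, YC 1, YC 2, YC 4 or YC 5 (-0.64 to -0.50, adjusted p of 0.0505 to 0.073). With median-ratio scaling 0 rose and 6 fell in YC against vehicle livers, where 18.1% of all genes rose and 16.8% fell. The Kupffer cell lectin Clec4f was at -0.52 ± 0.22, adjusted p = 0.0545 and the macrophage receptor Csf1r at 0.077 ± 0.17, adjusted p = 0.733 for YC minus vehicle (limma). Clec4f was called lower with median-ratio scaling (-0.86, adjusted p = 0.00478) and without YC 6 and YC 7 (-0.72, adjusted p = 0.0114). Leaving out vehicle 1, vehicle 7, vehicle 8, YC 6 or YC 7 alone also gave a call (-0.63 to -0.56, adjusted p of 0.017 to 0.0486). Monocyte and recruited macrophage markers summed to 42.00 to 69.9 RPKM in YC, 35.3 to 119 RPKM in vehicle and 7.55 to 14.03 RPKM in D0 livers, and 2 of 8 rose and 1 fell in YC against vehicle livers while 8 of 8 rose in vehicle against D0 livers. Trem2, a receptor of such macrophages, averaged 11.4 ± 2.86 RPKM in YC, 15.6 ± 4.55 in vehicle and 0.437 ± 0.212 in D0 livers. The part of these markers in the class II values was not tested.

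The markers of other class II-bearing cells were low. Beside the counts below, 44.6% of all genes rose and 6.14% fell in YC against vehicle livers. For vehicle against D0 livers the shares were 28.2% and 29.9%. The 8 B cell markers summed to 2.702 to 4.77 RPKM in YC, 3.67 to 13.6 RPKM in vehicle and 2.96 to 7.48 RPKM in D0 livers. Of 4 tested, Cd79a and Cd79b, the signalling chains of the B cell receptor, fell in YC against vehicle livers, and 2 rose in vehicle against D0 livers. Cd79a was not called without vehicle 3, vehicle 4, vehicle 5, YC 1, YC 2 or YC 7 (-0.59 to -0.50, adjusted p of 0.0561 to 0.0785). The 9 dendritic cell markers summed to 4.31 to 9.35 RPKM in YC, 5.22 to 9.41 RPKM in vehicle and 4.87 to 7.49 RPKM in D0 livers. Of 5 tested, 1 rose and 1 fell in YC against vehicle livers, and 3 rose and 1 fell in vehicle against D0 livers. Itgax, or CD11c, averaged 0.985 ± 0.4701 RPKM in YC, 1.07 ± 0.293 in vehicle and 0.304 ± 0.146 in D0 livers. Of 6 T and NK cell markers tested, 0 rose and 4 fell in YC against vehicle livers, and 4 rose and 0 fell in vehicle against D0 livers. Cd3d, a chain of the T cell receptor complex, fell in YC against vehicle livers by 1.10 (adjusted p = 0.000708, limma). No marker of these 3 lists was at 0 in all 22 livers.

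**Figure D5:**
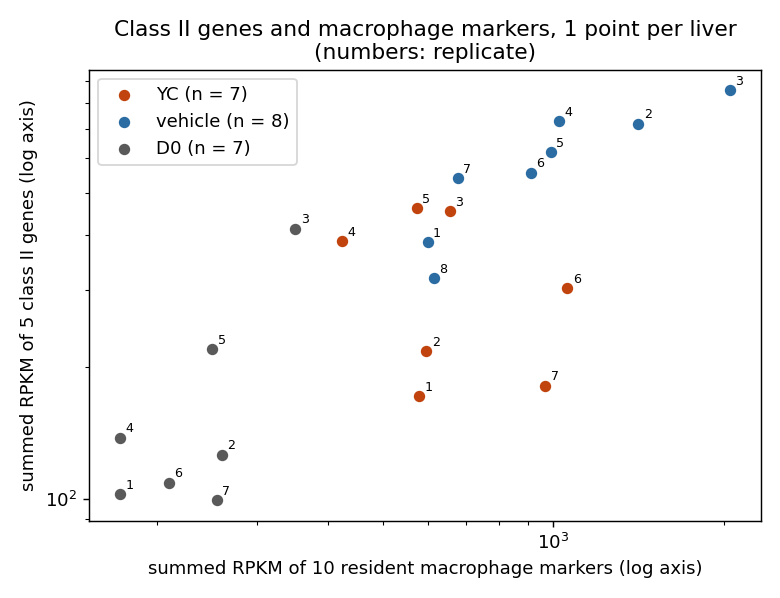
Summed RPKM of the 5 class II genes (vertical, log axis) against summed RPKM of 10 resident macrophage markers (horizontal, log axis), with 1 point per liver and its replicate number. Most vehicle livers lie at the upper right and D0 livers other than D0 3 at the lower left, and YC 6 and YC 7 have the highest macrophage sums of their group with class II sums below those of YC 3 to YC 5.

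The class II sum did not follow the macrophage sum in every liver. YC 6 and YC 7 had 1058 and 967 RPKM of macrophage markers with 303 and 181 RPKM of class II genes. YC 4 had 423 RPKM of macrophage markers with 388 RPKM of class II genes. H2-Ab1 was also set against Ptprc, or CD45, which all leukocytes carry. Of 6 markers of all leukocytes, 1 rose and 1 fell in YC against vehicle livers, with a median log2 fold change of -0.37. There 44.6% of all genes rose and 6.14% fell. Against D0 livers 5 rose in vehicle and 5 in YC livers, where 28.2% and 41.2% of all genes rose. With median-ratio scaling 0 rose and 4 fell in YC against vehicle livers, where 18.1% of all genes rose and 16.8% fell. Single markers differed. Cd52 fell by 0.77 (adjusted p = 0.0269) and Lcp1 rose by 0.62 (adjusted p = 0.0013, limma), and Cd52 was not called without vehicle 3, YC 1, YC 2 or YC 4 (-0.69 to -0.59, adjusted p of 0.0519 to 0.0689). Ptprc averaged 3.92 ± 0.679 RPKM in YC, 3.69 ± 1.196 in vehicle and 1.66 ± 0.346 in D0 livers, and its difference between YC and vehicle livers was 0.11 ± 0.16, adjusted p = 0.575 (limma). The log2 ratio of H2-Ab1 to Ptprc was 3.57 ± 0.62 in YC (SD, n = 7), 4.66 ± 0.60 in vehicle (n = 8) and 3.69 ± 0.80 in D0 livers (n = 7). It was lower in YC than in vehicle livers, with a difference of -1.08 (exact two-sided permutation test, p = 0.00715, adjusted p over 6 tests = 0.0143), and higher in vehicle than in D0 livers by 0.97 (exact two-sided permutation test, p = 0.0239, adjusted p over 6 tests = 0.0359). Between YC and D0 livers it differed by -0.11 (exact two-sided permutation test, p = 0.776, adjusted p over 6 tests = 0.776). The call for vehicle against D0 was lost when any 1 of D0 1, D0 2, D0 6, D0 7 or vehicle 2 to vehicle 7 was left out, with values of 0.82 to 0.97 and adjusted p of 0.0516 to 0.0759. Against the mean of the 6 markers, a measure added after the data were seen, H2-Ab1 differed by -0.76 (exact two-sided permutation test, p = 0.0224, adjusted p over 6 tests = 0.0448) for YC minus vehicle and 0.59 (exact two-sided permutation test, p = 0.0416, adjusted p over 6 tests = 0.0625) for vehicle minus D0.

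Hepatocyte markers were counted in the same way. Of 6 hepatocyte markers, 0 rose and 4 fell in YC against vehicle livers, where 6.14% of all genes fell. Vehicle against D0 livers gave 1 higher and 1 lower, with 28.2% and 29.9% of all genes. YC against D0 livers gave 1 higher and 3 lower, with 41.2% and 12.3% of all genes. Alb, the plasma protein albumin, averaged 24644 ± 9237 RPKM in YC and 50803 ± 11739.7 in vehicle livers and fell by 1.10 (adjusted p = 0.000177, limma). Serpina1c, an antitrypsin gene, fell by 1.81 (adjusted p = 9.43e-06) and Cyp2e1, a pericentral cytochrome, by 1.45 (adjusted p = 0.000548, limma). With quantile normalization Alb was at -0.30 (adjusted p = 0.155). Hnf4a, a hepatocyte transcription factor, was at 0.21 ± 0.13, adjusted p = 0.185 (limma). Of 5 bile duct markers 3 rose and 0 fell, of 8 neutrophil markers 3 rose and 0 fell, of 6 sinusoidal endothelial markers 1 rose and 1 fell, and of 6 stellate cell and fibroblast markers 2 rose and 0 fell in YC against vehicle livers, where 44.6% of all genes tested rose. With median-ratio scaling, where 18.1% of all genes rose and 16.8% fell, 1 rose and 0 fell of the bile duct markers, 2 rose and 0 fell of the neutrophil markers, 0 rose and 3 fell of the sinusoidal markers and 1 rose and 1 fell of the stellate cell markers. The part of these changes in the B2m and H2-K1 values was not tested.

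The members were also compared by the shape of their course over the 22 livers, as the root mean square difference of log2(RPKM + 0.5) after centring each gene on its own mean. Among H2-Aa, H2-Ab1, H2-Eb1 and Cd74 the difference was 0.104 to 0.3400, with H2-Ab1 and Cd74 the closest pair. H2-K1 differed from B2m by 0.495 and from H2-D1 by 0.524, and Tap1 differed from B2m by 1.02. Of 7278 genes that averaged 5 RPKM or more, the 5 closest to H2-Ab1 were Cd74 (0.104), H2-Eb1 (0.174), H2-DMb1 (0.328), H2-Aa (0.340) and Lsp1 (0.445), an actin-binding protein of leukocytes. The 5 closest to B2m were Rarres2 (0.242), which encodes the secreted protein chemerin, S100a1 (0.273), a calcium-binding protein, Apoa2 (0.301), an apolipoprotein of high-density lipoprotein, Nit2 (0.311), an amidase, and Immp2l (0.311), a mitochondrial peptidase subunit. The list for B2m held 0 other class I members, whereas the list for H2-Ab1 held 3 of the other 4 class II members. The remaining class II member, Ciita, averaged under 5 RPKM and was not ranked. Likeness is a description over livers of 3 groups, and its size reflects the group differences given above.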

How the data were processed

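Per the labels' protocols, total RNA came from flash frozen liver by Trizol, and its polyadenylated fraction was made into sequencing libraries. The authors deposited 1 table of RPKM values, 1 column per library. The submitters' processing notes name TopHat 1.4.1, Cufflinks 1.3.0 and mm10. Annotation, filters and use of strand were not given in the sources used here. RPKM are not counts, so no count model was used. Depth was recovered from steps between low values, of which 32.00% to 40.4% per library came out whole at a tolerance of 0.03, too few for a count test. No 2 libraries of the same group were identical, and libraries of different groups were not compared in this way. YC 1 and YC 2 were the closest pair, with a root mean square log2 difference of 0.215. D0 6 and D0 7 came next, at 0.293.

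Values were taken as log2(RPKM + 0.5), a scale on which changes of low genes are understated, and fitted with limma 3.58.1 (trend and robust, statmod 1.5.0, R 4.3.3) over all 22 libraries in 3 groups with no covariate, two-sided, with Benjamini-Hochberg adjustment over 12537 genes. The fit was tested on simulated data for YC minus vehicle over 12550 genes, with 200 genes moved up or down at random. There 88.2% of changes of 1 and 96.9% of changes of 2 on the log2 scale were recovered, and 7.04% of calls were false. The simulation held no general shift and fewer changed genes than were called in the data, so these rates need not hold here. Ratios used exact permutation tests over libraries. Alternatives covered the pseudocount, filter, scaling, weights, replicate block, Y status and left-out livers. Genes named are the 9 members, listed genes with their list's counts, and the 5 nearest genes to H2-Ab1 and to B2m. Values of some listed genes are not reported here. The members and lists were chosen with earlier results of these data known. Gene positions are from GENCODE M21 on GRCm38. Other steps used scipy 1.17.1, numpy 2.4.6 and pandas 2.3.3 under Python 3.11.15, with figures from matplotlib 3.10.9.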

Additional observations from a re-analysis of the deposited data

Results flagged for a closer look

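Of 33 sets of liver values checked for 1 liver far from the rest of its group, 2 were flagged, and chance flags about 1 in 20 such sets, or 1.65 of 33. The log2 ratio of H2-Ab1 to B2m in YC 7 was -5.12, against -4.12 to -3.38 in the other 6 YC livers. YC 7 had the lowest H2-Ab1 of its group, at 25.7 RPKM, with 908 RPKM of B2m. The same ratio in vehicle 8 was -5.60, against -4.52 to -4.05 in the other 7 vehicle livers. Vehicle 8 had the lowest H2-Ab1 of its group, at 55.02 RPKM, with 2687 RPKM of B2m.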

How the results depend on the processing

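Over 15 alternatives, 316 of 347 values of the 9 genes kept their side of the threshold, as did 361 of 396 values with 1 liver left out. The sign changed in 6 and 4 of these values, all of them for Ciita, H2-K1 or H2-D1 in comparisons where the gene was not called. The number of genes called was 3816 for YC minus vehicle, 4061 for vehicle minus D0 and 3560 for YC minus D0 with a mean of at least 5 RPKM required, a filter that leaves fewer genes to test, against 6357, 7278 and 6699 as reported. Median-ratio scaling gave 2266 higher and 2100 lower genes for YC minus vehicle, against 5587 and 770 as deposited, and 3215 and 3593 for YC minus D0, against 5162 and 1537. H2-Ab1 relative to Ptprc for vehicle minus D0 was 0.84 (adjusted p = 0.0634) with a pseudocount of 0.1, 0.59 (adjusted p = 0.0625) against the mean of 6 leukocyte markers and 0.82 to 1.22 with 1 liver left out. H2-Ab1 relative to B2m for YC minus vehicle was 0.37 to 0.73 with 1 liver left out and 0.81 (adjusted p = 0.00758) without YC 6 and YC 7, and Cd74 relative to B2m was 0.61 (adjusted p = 0.0496). Of listed genes, quantile normalization reversed Rfxap (-0.36), Rfxank (-0.068) and Tapbpl (-0.0068) for YC minus vehicle and H2-Oa (-0.46) for YC minus D0, and leaving out YC 6 and YC 7 reversed Calr for YC minus vehicle (0.43). For these the cause was not tested.

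Same-numbered livers of different groups had correlations of deviations, over the genes tested, of -0.386 to 0.227. Differently numbered livers were not set beside them, so whether the numbers pair the livers stays unsettled. With the replicate number as a block, 6002 genes were called for YC minus vehicle, 7129 for vehicle minus D0 and 6486 for YC minus D0. Under that block B2m for vehicle minus D0 was 0.43 (adjusted p = 0.0584) and Ciita was 0.45 (adjusted p = 0.016), and no other call of a member changed. For YC minus vehicle the block lowered the SE from 0.33 to 0.20 for H2-Ab1 and from 0.31 to 0.17 for H2-Eb1. The SE of Cd74 went from 0.31 to 0.19 and that of B2m from 0.191 to 0.188. Ciita averaged 0.5599 RPKM in YC, 0.549 in vehicle and 0.3102 in D0 livers, near the 0.5 RPKM of the filter.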
